A study of Mus musculus with 24 samples.

Results

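The interleukin 1 family was followed in the colon through 9 of the 18193 genes named on the arrays: the ligands Il1b, Il1a, Il18 and Il33, the inhibitors Il1rn and Il18bp, the receptors Il1r1 and Il1r2, and the protease gene Casp1. Its members were all probe sets whose platform annotation gives 1 gene symbol of a list of 10 genes, which took 12 of the 45137 probe sets on the arrays once control probe sets were set aside. Of these, 11 were on the 430A array, and the other, for Il1r1, was on the 430B array. Il1rn had 3 probe sets, Il1r1 had 2 and the other 7 genes had 1 each. The remaining gene of the list, Il1rl1, the receptor of interleukin 33, had no probe set under that symbol in the annotation used here and was not analysed.

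RNA was extracted from the whole colon of BALB/c mice, an inbred laboratory strain, aged 6 to 8 weeks, and hybridised to Affymetrix MOE430 A and B arrays. The 4 groups of 3 samples were curcumin-diet mice with a TNBS enema, curcumin-diet mice with a control enema, standard-diet mice with a TNBS enema and standard-diet mice with a control enema. TNBS, trinitrobenzene sulfonic acid, is a hapten that provokes colitis when given into the colon, and curcumin is the yellow polyphenol of turmeric, fed at 2% of the diet from 2 days before the enema until the colon was taken on day 7. RNA of 3 mice of a group was pooled, and nothing in the labels tells if the 3 samples are pools of different mice, so the p-values measure the spread between these samples, which may be technical. The labels give no knockout or transgene in any group.

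Interleukin 1 beta and interleukin 1 alpha act through the receptor encoded by Il1r1 and set off a signal through NF-kappa B that brings neutrophils and other leukocytes into inflamed tissue. Il1r2 encodes a decoy receptor that binds the cytokine without signalling, and Il1rn encodes the receptor antagonist. Caspase 1, the enzyme of the inflammasome, cuts the precursors of interleukin 1 beta and interleukin 18 into their active forms, interleukin 33 is an alarm signal held in the nuclei of stromal and epithelial cells, and Il18bp encodes a soluble binding protein that neutralises interleukin 18. In the gut, interleukin 18 is made mainly by the epithelium, and interleukin 1 beta mainly by monocytes, macrophages and neutrophils.

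The stretches of 250 bases before the start of Il1b, Il33 and Il1r2 are shown because these genes had the largest differences between TNBS and control enema on the standard diet among the members. They come from RefSeq on GRCm38.p6 and are written 5′ to 3′ on the strand of the gene. Capitals mark every match, on either strand, to any of 5 motifs: TATAAA (the TATA box), TTGCNNAA (bound by C/EBP factors), GAGGAA (bound by PU.1), TGANTCA (bound by AP-1) and the NF-kappa B consensus.
Il1b, chr2:129371140-129371389, minus strand: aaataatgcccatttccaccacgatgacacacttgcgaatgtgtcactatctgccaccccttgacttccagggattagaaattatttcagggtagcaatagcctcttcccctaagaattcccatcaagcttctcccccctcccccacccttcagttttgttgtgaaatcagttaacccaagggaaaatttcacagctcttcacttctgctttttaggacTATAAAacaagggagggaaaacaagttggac
Il33, chr19:29945540-29945789, plus strand: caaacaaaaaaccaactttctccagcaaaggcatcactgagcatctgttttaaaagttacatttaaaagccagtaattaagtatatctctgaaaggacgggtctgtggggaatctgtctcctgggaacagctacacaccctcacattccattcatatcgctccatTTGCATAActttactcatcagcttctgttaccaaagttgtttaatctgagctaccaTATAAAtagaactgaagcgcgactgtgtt
Il1r2, chr1:40085843-40086092, plus strand: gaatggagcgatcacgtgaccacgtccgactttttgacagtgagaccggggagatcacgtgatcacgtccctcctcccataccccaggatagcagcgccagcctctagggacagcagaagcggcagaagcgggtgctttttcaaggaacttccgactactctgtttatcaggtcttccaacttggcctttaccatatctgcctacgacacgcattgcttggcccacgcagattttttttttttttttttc

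The Il1b stretch held a TATAAA 31 bases before the start and no match to the other 4 motifs. The Il33 stretch, at the second of the RefSeq starts of that gene, held a TATAAA 29 bases before the start and a C/EBP match at position -85. The Il1r2 stretch held none of the 5. TATAAA beginning between positions -40 and -20 was found in 3 of the 15 stretches of the 10 listed genes, those of Il1a, Il1b and Il33, and in 2.5% of the 32851 RefSeq promoters. The 15 include stretches of Il1rl1, with a C/EBP match at -34, and stretches of Il1rn that overlap each other. Over the whole 250 bases, TATAAA was in 5 of these 15 stretches and 12.4% of all promoters, C/EBP in 4 and 9.56%, PU.1 in 2 and 23.3%, AP-1 in 2 and 6.75%, and NF-kappa B in 1 and 7.25%. A match describes the letters and does not show that a factor binds there.

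The values are array signals on a linear scale, as deposited. The 430A arrays parted along their first principal component (32.0% of the variance) into 2 sets of 6 that did not follow diet or enema, each group having 1 or 2 arrays in each, and the labels name no batch. Values from a second fit that has a term for these array sets are therefore given where they change a call. On the 430B type, 2 arrays (replicates 2 and 3 of curcumin with TNBS) lay far from the rest, with a mean correlation of 0.770 with the other 10, against 0.904 among those. Differences were tested in limma on log2(signal + 16), and an adjusted p under 0.05 over all tested probe sets of an array type is called past the threshold. The 6 member probe sets bright enough to be tested were those of Il1b, Il18, Casp1 and Il1rn. The other 6, those of Il1a, Il18bp, Il1r1, Il1r2 and Il33, had a mean below the 40th percentile of their array type, and their differences come from a fit without that filter, with no call. Log2 differences are given ± their standard error on the log2(signal + 16) scale, which understates the change of dim probe sets.

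Il1b, the gene of interleukin 1 beta, stood apart in the standard-diet TNBS colons. Its signal was 224.7, 286.2 and 430.1 in curcumin-diet TNBS colons and 326.2, 279.3 and 254.7 in curcumin-diet control colons. It was 780.0, 670.9 and 1370.1 in standard-diet TNBS colons, against 266.4, 268.5 and 301.6 in standard-diet control colons. The lowest standard-diet TNBS array thus lay above every array of the other 3 groups, and those 9 arrays overlapped one another. The group means were 314 ± 105 and 287 ± 36.3 on the curcumin diet with TNBS and control enema, and 940.3 ± 376 and 279 ± 19.7 on the standard diet with TNBS and control enema (SD, n = 3 each).

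On the standard diet, the log2 difference in Il1b between TNBS and control enema was 1.63 ± 0.27, a 3.10-fold higher level, with an adjusted p of 0.0593 (limma). It was therefore not past the threshold in this fit. In the fit with the array-set term the difference was 1.69 with an adjusted p of 0.0376, past the threshold as were 0.236% of all tested probe sets, and within array sets 1 and 2 it was 1.79 and 1.40. Between curcumin and standard diet among TNBS colons the log2 difference was -1.52 ± 0.27, a 2.86-fold lower level on curcumin, with an adjusted p of 0.0907. The array-set term gave -1.57 with an adjusted p of 0.043, where 0.901% of all tested probe sets passed, and within the sets it was -2.02 and -1.12. Leaving out curcumin-diet control replicate 3, an array in neither comparison that enters through the shared estimate of spread, took both past the threshold, with adjusted p 0.03 for the enema and 0.0479 for the diet. Leaving out any of the other 11 samples did not. These comparisons share the standard-diet TNBS arrays, so they are not independent of each other.

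In a bulk sample of colon, fewer cells that express a gene and less RNA per cell cannot be told apart. On the curcumin diet, TNBS and control colons differed in Il1b by 0.08 ± 0.27 (95% interval -0.49 to 0.66), and with control enema the diets differed by 0.03 ± 0.27 (-0.54 to 0.61). The interaction, the TNBS difference on curcumin minus that on the standard diet, was -1.55 ± 0.38 with an adjusted p of 0.239 in limma and -1.66 with 0.123 in the fit with the array-set term. It did not pass the threshold in either fit.

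**Figure D1:**
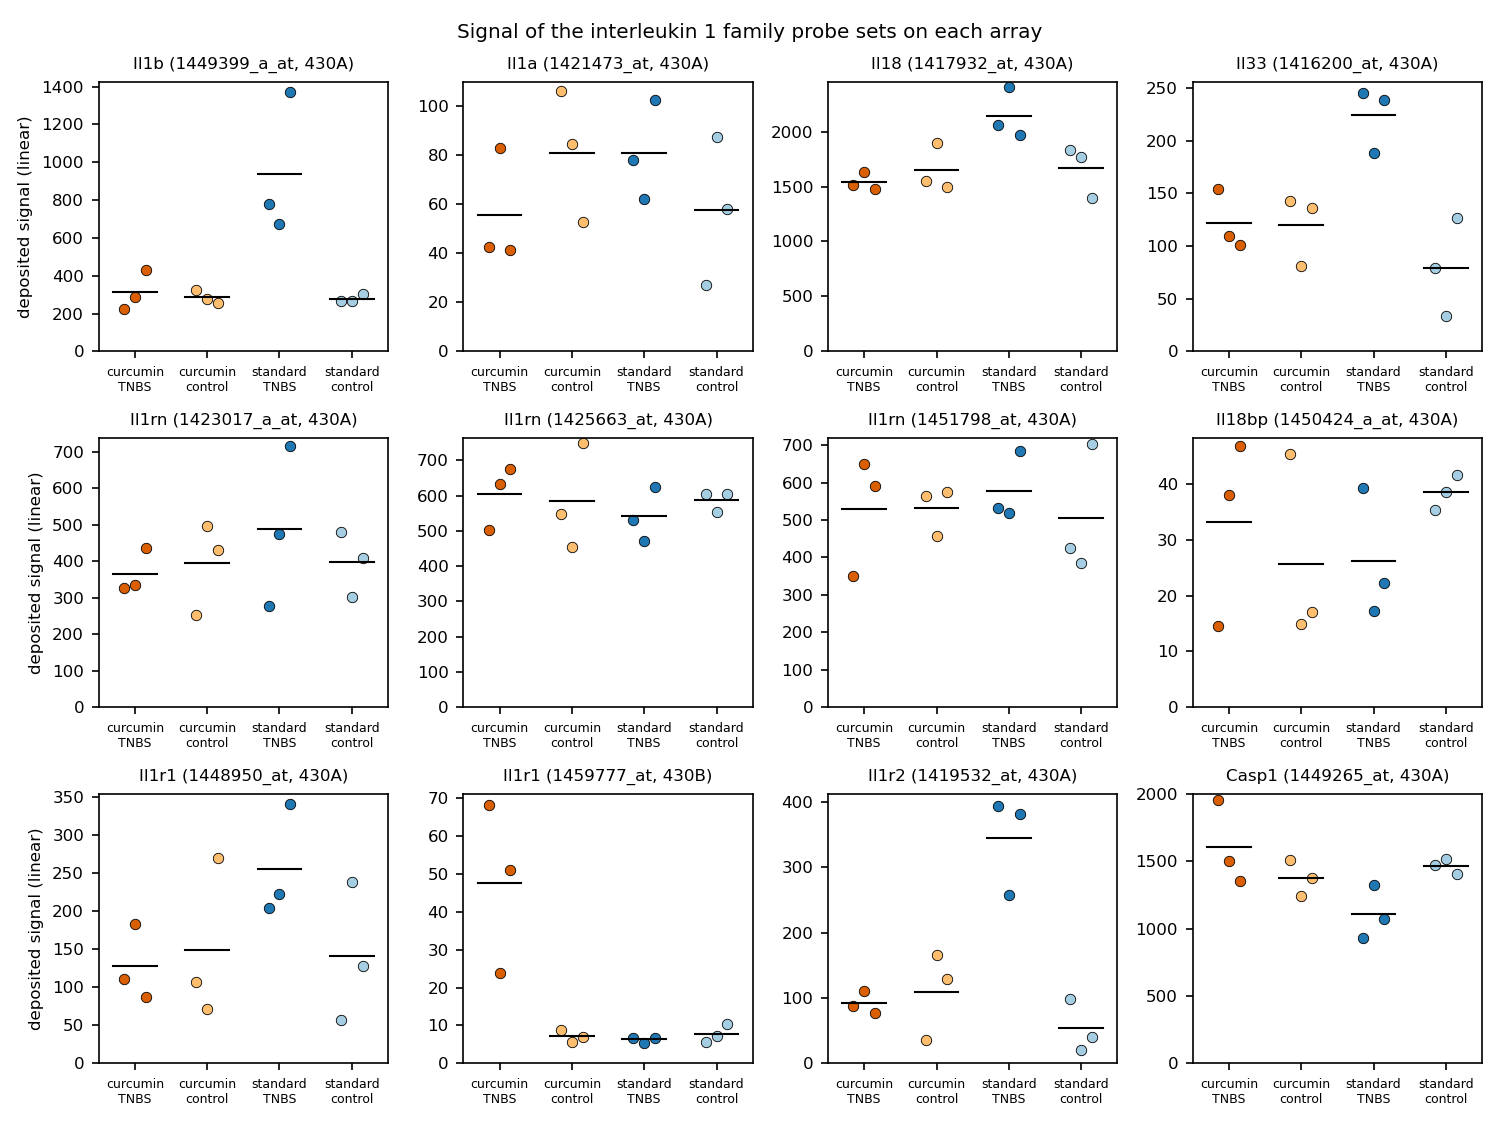
Deposited signal of the 12 member probe sets (vertical axes, linear scale from 0, each panel with its own range) by diet and enema group, each point 1 array and each line the mean of 3. The 3 standard-diet TNBS arrays of Il1b lie at 670.9 to 1370.1, and those of Il1r2 at 257.8 to 394.1, above every array of the other 3 groups, while the Il1rn groups overlap.

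Il33 and Il18 also had their highest signals in the standard-diet TNBS colons. The Il33 probe set was dim, with signals of 154, 109.2 and 101.1 in curcumin-diet TNBS colons and 142.7, 80.7 and 135.9 in curcumin-diet control colons. In standard-diet TNBS colons it had 245.7, 188.5 and 238.7, against 79.1, 33.3 and 126.2 in standard-diet control colons. All 3 standard-diet TNBS arrays were above the other 9. The difference between TNBS and control enema on the standard diet was 1.45 ± 0.38 (adjusted p 0.248, limma without the filter) and was 1.26 and 1.64 within array sets 1 and 2. Among TNBS colons, curcumin and standard diet differed by -0.82 ± 0.38 (adjusted p 0.636, limma without the filter).

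Il18, a bright probe set, had 1518, 1628.9 and 1477.1 in curcumin-diet TNBS colons and 1553.8, 1899.7 and 1495.1 in curcumin-diet control colons. It had 2058, 2405.9 and 1973.2 in standard-diet TNBS colons, against 1837.1, 1769.7 and 1393.1 in standard-diet control colons. The standard-diet TNBS arrays were again the 3 highest of the 12, but the step was small. The log2 difference was 0.37 ± 0.14 for TNBS against control enema on the standard diet (adjusted p 0.421) and -0.47 ± 0.14 for curcumin against standard diet among TNBS colons (adjusted p 0.251), both by limma and neither past the threshold. On the curcumin diet, TNBS and control colons differed by -0.09 ± 0.14 (95% interval -0.40 to 0.22).

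Il1a, the gene of the membrane-held and nuclear ligand interleukin 1 alpha, stayed near the bottom of the range. Its signals were 41.1 to 82.7 in curcumin-diet TNBS colons, 52.5 to 106 in curcumin-diet control colons, 62.2 to 102.5 in standard-diet TNBS colons and 27 to 87.5 in standard-diet control colons. The groups overlapped in every comparison. The TNBS difference on the standard diet was 0.47 ± 0.38 (95% interval -0.37 to 1.31).

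The inhibitor genes showed no separation of the groups. The 3 probe sets of Il1rn, the receptor antagonist, had overlapping groups in each of the 4 comparisons of groups. Probe set 1423017_a_at had 326.3, 336.5 and 436.6 in curcumin-diet TNBS colons, 254.4, 497.8 and 432.1 in curcumin-diet control colons, 276.7, 474.9 and 716.5 in standard-diet TNBS colons and 479.2, 303.5 and 409.6 in standard-diet control colons. For TNBS against control enema on the standard diet the 3 probe sets gave 0.21 ± 0.32, -0.12 ± 0.19 and 0.23 ± 0.25. The 95% intervals were -0.48 to 0.91 for 1423017_a_at, -0.53 to 0.28 for 1425663_at and -0.32 to 0.78 for 1451798_at, so the upper bounds lay below the 1.63 measured for Il1b. Among TNBS colons, curcumin and standard diet differed in them by -0.32 ± 0.32, 0.15 ± 0.19 and -0.16 ± 0.25. Il18bp lay at 14.6 to 46.7 over the 12 arrays, at the 9.73 percentile of its array type by mean, and its groups overlapped.

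Il1b was set against Il1rn within each array, as the log2 value of Il1b minus the mean of the 3 Il1rn probe sets, with the mean of standard-diet control colons put at 0. This measure was chosen after the values were seen. It was 0.11 ± 0.24 in curcumin-diet TNBS colons, 0.02 ± 0.37 in curcumin-diet control colons, 1.52 ± 0.29 in standard-diet TNBS colons and 0 ± 0.18 in standard-diet control colons (SD, n = 3 each). The standard-diet TNBS arrays lay at 1.21 to 1.77, above all others, while the other 3 groups overlapped. An exact two-sided permutation test gave p = 0.1 both for TNBS against control enema on the standard diet and for curcumin against standard diet with TNBS, which is the smallest p that 3 against 3 allows.

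**Figure D2:**
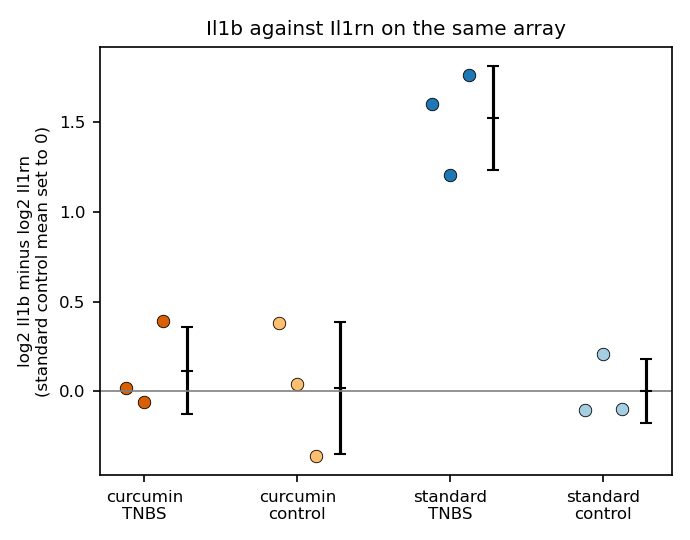
Log2 Il1b minus log2 Il1rn on the same array (vertical axis, log2 units, mean of standard-diet control colons set to 0) by group, each point 1 array, bars the mean ± SD of 3. Standard-diet TNBS arrays lie at 1.21 to 1.77, and the other group means at 0.11 or lower.

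Among the receptors, Il1r2, the decoy, had the largest difference of any member on the standard diet. Its signals were 87.9, 110.8 and 76.3 in curcumin-diet TNBS colons and 35.4, 165 and 128.8 in curcumin-diet control colons. They were 394.1, 257.8 and 380.9 in standard-diet TNBS colons, against 99, 20.7 and 40.3 in standard-diet control colons. As with Il1b, all 3 standard-diet TNBS arrays lay above the other 9.

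The TNBS difference in Il1r2 on the standard diet was 2.52 ± 0.50, 5.72-fold, with an adjusted p of 0.117 in limma without the filter, and it was 1.52 and 3.17 within array sets 1 and 2. It depends on the pseudocount, being 1.84 with 64 in place of 16, since the standard-diet control signals were dim. Curcumin against standard diet among TNBS colons gave -1.73 ± 0.50 (adjusted p 0.311). On the curcumin diet, TNBS and control colons differed by -0.05 ± 0.50 (95% interval -1.13 to 1.03). The interaction was -2.57 ± 0.70 (adjusted p 0.370), not past the threshold.

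The 2 probe sets of Il1r1, the signalling receptor, disagreed. On 430A, 1448950_at had 111.5, 183.3 and 87.9 in curcumin-diet TNBS colons, 106.6, 71.1 and 270.3 in curcumin-diet control colons, 205, 223 and 340.9 in standard-diet TNBS colons and 57.3, 238.8 and 128.2 in standard-diet control colons. Its standard-diet TNBS arrays lay above the curcumin-diet TNBS arrays but overlapped those of standard-diet control colons. The differences were 0.94 ± 0.51 for TNBS on the standard diet (adjusted p 0.766) and -0.95 ± 0.51 for the diet among TNBS colons (adjusted p 0.711), from limma without the filter.

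On 430B, 1459777_at had 68.1, 23.8 and 51.1 in curcumin-diet TNBS colons and 5.4 to 10.4 on the other 9 arrays. Its difference between curcumin and standard diet among TNBS colons was 1.45 ± 0.26, with an adjusted p of 0.0366 in limma without the filter, a fit in which 0.222% of all probe sets passed. This is the opposite direction to the 430A probe set. The size was 2.61 with a pseudocount of 1 and 0.65 with 64. The probe set ranked in the lowest 1.08% of its array type, and 2 of its 3 high arrays are those that stood apart on 430B. Without them the remaining array gave 1.91 (adjusted p 0.084), with the lone sample assumed to vary like the other groups. With each sample left out in turn the adjusted p ran from 0.00789 to 0.165 and was above 0.05 for 8 of the 12. The 2 probe sets therefore give no single direction for Il1r1.

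Casp1 was lowest, not highest, in standard-diet TNBS colons, without passing the threshold. Its signals were 1950.8, 1503.5 and 1354.4 in curcumin-diet TNBS colons and 1505.7, 1238.6 and 1373.9 in curcumin-diet control colons. They were 926.4, 1320.7 and 1069.7 in standard-diet TNBS colons, against 1473.9, 1515.1 and 1404.4 in standard-diet control colons. The standard-diet TNBS arrays lay below those of standard-diet control and of curcumin-diet TNBS colons, and overlapped those of curcumin-diet control colons. The TNBS difference on the standard diet was -0.41 ± 0.16 (adjusted p 0.429, limma). Curcumin against standard diet among TNBS colons gave 0.53 ± 0.16 (adjusted p 0.264, limma), and the interaction gave 0.62 ± 0.23 (adjusted p 0.388, limma).

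**Figure D3:**
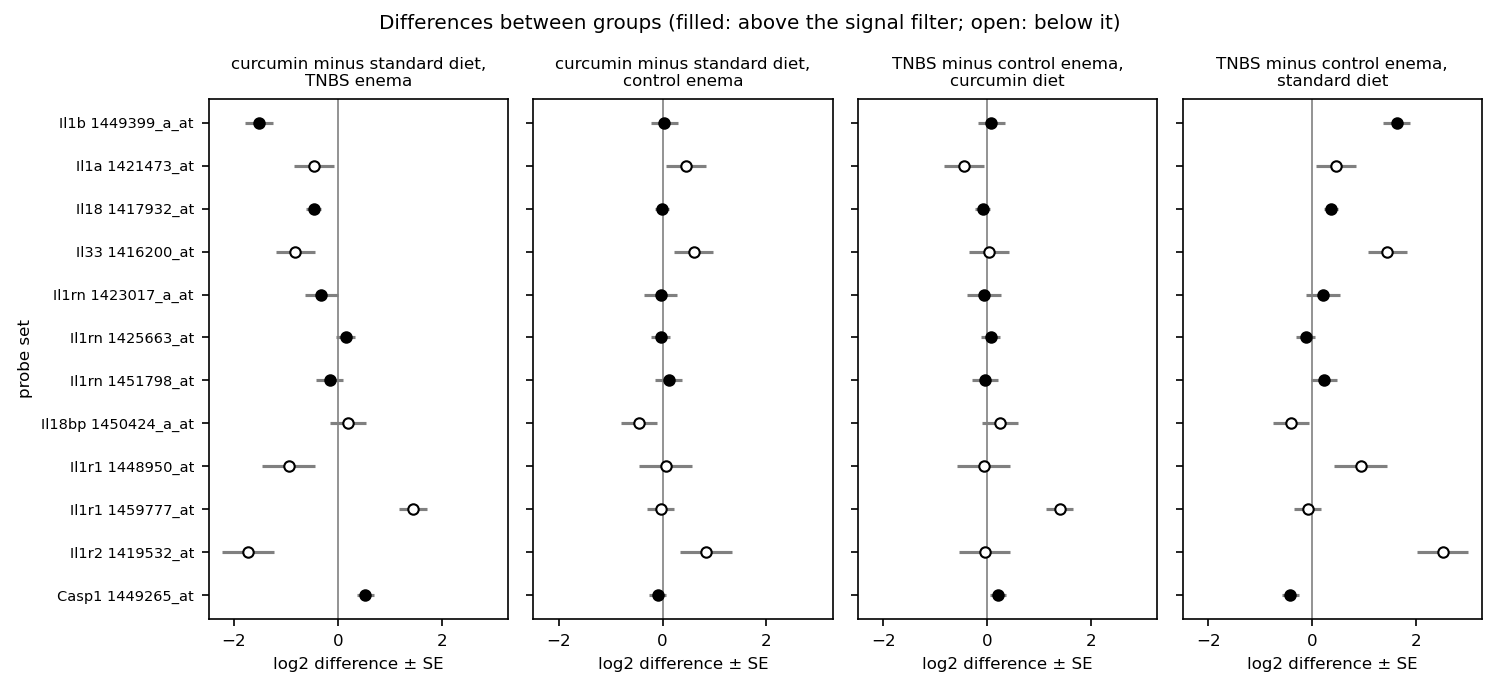
Log2 differences of the 12 member probe sets (horizontal axes, log2 units, limma estimate ± SE) in 4 comparisons, with filled points for tested probe sets and open points for those below the signal filter. Il1r2, Il1b and Il33 lie right of 0 for TNBS against control enema on the standard diet, at 2.52, 1.63 and 1.45, and near 0 for the same comparison on the curcumin diet.

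Across the 12 probe sets of the family, 0 of the 6 tested probe sets passed the threshold in limma for TNBS against control enema on the standard diet, where 0.00739% of all tested probe sets passed. At an unadjusted p under 0.05 there were 3 of 6 (Il1b, Il18 and Casp1), against 7.27% of all tested probe sets. Groups did not overlap for 5 of the 12 probe sets, 4 higher with TNBS (Il1b, Il1r2, Il33 and Il18) and 1 lower (Casp1), against 12.7% of all probe sets, of which 6.24% were higher and 6.48% lower. The median log2 difference of the 12 was 0.30, against -0.02 over all probe sets in the fit without the filter.

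For curcumin against standard diet among TNBS colons, 0 of 6 passed in limma, where 0.805% of all did, and 3 of 6, the same 3 genes, had an unadjusted p under 0.05, against 16.9% of all tested probe sets. Groups did not overlap for 7 of 12, with 5 lower on curcumin (Il1b, Il1r2, Il33, Il18 and the 430A probe set of Il1r1) and 2 higher (Casp1 and the 430B probe set of Il1r1), against 17.9% of all, 7.75% lower and 10.2% higher. The median was -0.39, against 0.04 over all probe sets. For TNBS against control enema on the curcumin diet, 0 of 6 passed, against 0.203% of all, and 0 of 6 had an unadjusted p under 0.05, against 13.3% of all. There 1 of 12 did not overlap, the 430B probe set of Il1r1, against 13.2% of all, 8.02% being higher with TNBS as it was. With control enema, 0 of 6 passed, against 0.00369% of all, 0 of 6 had an unadjusted p under 0.05, against 3.61% of all, and all 12 overlapped between diets, where 8.12% of all probe sets did not. For the interaction 0 of 6 passed, against 0.0332% of all, and 3 of 6 had an unadjusted p under 0.05 in limma, against 13.5% of all.

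Il1b alone was then compared with the other tested 430A genes. Over the 12 arrays, the 5 genes whose centred log2 values lay closest to those of Il1b, by root mean square difference among 8344 genes, were Fpr2 (0.382), Ngp (0.404), Mmp9 (0.416), Cxcl13 (0.439) and Osmr (0.442). The median over all genes was 0.783, and a flat profile gave 0.747. Fpr2 encodes a formyl peptide receptor of phagocytes, Ngp a granule protein of neutrophils, Mmp9 a gelatinase carried by neutrophils, Cxcl13 a chemokine for B cells, and Osmr the oncostatin M receptor.

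Fpr2 had 179.8, 260.5 and 343.3 in curcumin-diet TNBS colons, 337.4, 308.6 and 342.1 in curcumin-diet control colons, 599.7, 364.2 and 675.8 in standard-diet TNBS colons and 273.1, 258.3 and 275.8 in standard-diet control colons. Mmp9 had 211.3, 157.7 and 171.2 in curcumin-diet TNBS colons, 206.7, 216.7 and 162.2 in curcumin-diet control colons, 540.6, 339.1 and 406.4 in standard-diet TNBS colons and 202.9, 149.6 and 187.2 in standard-diet control colons. In both genes the 3 standard-diet TNBS arrays were the highest of the 12. The 5 genes differed by 0.94 to 1.40 between TNBS and control enema on the standard diet, and none of the 5 passed the threshold there in the limma fit without the array-set term. They were picked for likeness to Il1b on these same 12 arrays, so these high values follow from the choice.

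Of the genes that interleukin 1 is known to induce, 25 were listed, 25 were on the arrays and 11 were tested. For TNBS against control enema on the standard diet, 1 of the 11 rose past the threshold and 0 fell, where 0.00739% of all tested probe sets passed. At an unadjusted p under 0.05 in limma there were 8 of the 11, against 7.27% of all. The median was 0.81, against -0.01 over all tested genes. With the array-set term, where 0.236% of all tested probe sets passed, 4 rose: Lcn2, Saa3, Mmp9 and Vcam1. Lcn2, the gene of the iron-binding protein lipocalin 2, was the one that rose in both fits. It had 134.5, 123 and 159 in curcumin-diet TNBS colons, 82.1, 101.1 and 710.1 in curcumin-diet control colons, 6003.1, 2957.2 and 5714.3 in standard-diet TNBS colons and 56.9, 114.4 and 72.8 in standard-diet control colons. All 3 standard-diet TNBS arrays lay above the rest, by 5.63 ± 0.59 against control enema (adjusted p 0.00638, limma). Outside that group only the 710.1 exceeded 179.5, the signal at the filter, so Lcn2 was tested through the group where it was high. Without the filter its adjusted p was 0.0145 (limma). The difference was 5.44 or more with any 1 sample left out, but the adjusted p was above the threshold without standard-diet TNBS replicate 1 (0.0596) or 3 (0.0784) and without standard-diet control replicate 1 (0.0623) or 3 (0.061).

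Saa3, an acute phase protein gene, had 225.4, 462.1 and 392.5 in curcumin-diet TNBS colons, 371.8, 277.5 and 1209.6 in curcumin-diet control colons, 4098.1, 2023.2 and 3425 in standard-diet TNBS colons and 240.6, 303.8 and 442.8 in standard-diet control colons. Its difference was 3.19 ± 0.47 (adjusted p 0.0593), and with the array-set term 3.32 (adjusted p 0.032). For Mmp9 the difference with that term was 1.17 (adjusted p 0.0485), and for Vcam1, an adhesion molecule of activated endothelium, it was 1.02 (adjusted p 0.0485). Curcumin-diet control replicate 3 was the highest array of the curcumin diet for both Lcn2 and Saa3. Among TNBS colons, 1 of the 11 was higher on curcumin and 10 were lower, with a median of -0.76. At an unadjusted p under 0.05 there were 8 of the 11, against 16.9% of all tested probe sets. Past the threshold, 0 rose and 1 fell, Lcn2 at -4.92 ± 0.59 (adjusted p 0.0139, limma), where 0.805% of all passed. This call was lost without curcumin-diet TNBS replicate 1 (adjusted p 0.0504), 2 (0.141) or 3 (0.0632) and without standard-diet TNBS replicate 1 (0.0916) or 3 (0.136), with differences from -4.74 to -5.02. Saa3 joined Lcn2 with the array-set term, at -3.21 (adjusted p 0.0222), where 0.901% of all tested probe sets passed. On the curcumin diet, 0 of 11 passed in either direction for TNBS against control enema, where 0.203% of all tested probe sets did. At an unadjusted p under 0.05 in limma there were 0, against 13.3% of all, and the median was -0.08.

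Among the other ligands, receptors and co-receptors of the family, 8 of 10 genes on the arrays were tested. None of the 8 passed in any of the 5 comparisons in limma, where 0.00369% to 0.805% of all tested probe sets passed. At an unadjusted p under 0.05 there were 0 of 8 in each, against 3.61% to 16.9% of all. With so few genes these counts are near their background. Their medians were -0.06 for TNBS on the standard diet and 0.03 for the diet among TNBS colons. The smallest unadjusted p-values for TNBS on the standard diet belonged to Il1f9, now called the gene of interleukin 36 gamma, at 0.19 ± 0.25 (adjusted p 0.876), and to Il1rl2, the receptor for interleukin 36, at -0.24 ± 0.33 (adjusted p 0.999). For the diet among TNBS colons they belonged to Il1f9, at -0.24 ± 0.25 (adjusted p 0.819), and to Il18rap, a chain of the interleukin 18 receptor, at 0.32 ± 0.40 (adjusted p 0.850).

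Of the genes of the inflammasome and of processing, 15 of 20 on the arrays were tested and 0 passed in limma in any of the 5 comparisons. Over these comparisons 0.00369% to 0.805% of all tested probe sets passed. At an unadjusted p under 0.05 there were 2 of 15 for TNBS on the standard diet and 3 of 15 for the diet among TNBS colons, against 7.27% and 16.9% of all tested probe sets, so the second count is near its background. On the standard diet, Txnip, whose protein binds thioredoxin, differed by -0.45 ± 0.12 (adjusted p 0.206) and Panx1, a membrane channel gene, by -0.57 ± 0.25 (adjusted p 0.511). Among TNBS colons, Gsdmd, the gene of the pore-forming protein gasdermin D that caspase 1 cuts, had 3134.4, 2936.5 and 2685.7 on curcumin, against 3875.4, 4845.8 and 5804.9 on the standard diet. Its arrays did not overlap, and the difference was -0.71 ± 0.22 (adjusted p 0.0855, limma). Gsdmd was read on 430B, and without the 2 outlying arrays, which leaves 1 curcumin-diet TNBS array assumed to vary like the other groups, the difference was -0.61 (adjusted p 0.938). It was -0.38 with quantile normalization (adjusted p 0.208) and -0.90 with median centring (adjusted p 0.072). Without curcumin-diet control replicate 1 or curcumin-diet TNBS replicate 1 it passed, with adjusted p 0.0403 and 0.0413 (limma). In those fits 317 and 2619 of the 27081 tested probe sets passed. The second leaves only the 2 outlying 430B arrays as the curcumin-diet TNBS group, so that call rests on them. Naip5, which encodes a sensor of bacterial flagellin, had 1179.5, 990.1 and 909.1 on curcumin, against 704.9, 605.3 and 612.1 on the standard diet, a difference of 0.66 ± 0.20 (adjusted p 0.251, limma). Its arrays did not overlap either. In this comparison 17.9% of all probe sets did not overlap, 7.75% being lower and 10.2% higher on curcumin. Gsdmd and Naip5 were named for the smallest p of the 15.

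Of the genes that carry the receptor signal, 18 of 19 on the arrays were tested. None passed in limma in any comparison, where 0.00369% to 0.805% of all tested probe sets did. At an unadjusted p under 0.05 there were 0 of 18 for TNBS on the standard diet, against 7.27% of all tested probe sets. For the diet among TNBS colons there was 1 of 18, against 16.9%. The medians were 0.13 and -0.10. The smallest unadjusted p-values on the standard diet belonged to Zc3h12a, the gene of the RNase regnase 1, at 0.62 ± 0.31 (adjusted p 0.954), and Traf6, a ubiquitin ligase of the pathway, at 0.30 ± 0.16 (adjusted p 0.615). Among TNBS colons Traf6 differed by -0.38 ± 0.16 (adjusted p 0.423) and Nfkbia, the inhibitor of NF-kappa B, by -0.22 ± 0.10 (adjusted p 0.493). Of 6 genes on the arrays that interleukin 18 or interleukin 33 induce, 0 were bright enough to be tested.

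The summed signals of neutrophil and of macrophage markers were highest in the standard-diet TNBS colons, as Il1b was. The summed signal of the 11 neutrophil markers on 430A was 1174.6, 1797.4 and 2234.1 in curcumin-diet TNBS colons and 2101.2, 1776.2 and 1674.9 in curcumin-diet control colons. It was 7807.4, 5135.4 and 9248 in standard-diet TNBS colons, against 1605.9, 1722.4 and 1709.7 in standard-diet control colons. Most of this step came from S100a8 and S100a9, the subunit genes of calprotectin. S100a8 had 2457.6, 1431 and 2988.6 in standard-diet TNBS colons and 12.3 to 212.3 on the other 9 arrays, and S100a9 had 1558.3, 1272.9 and 3459.9 against 5.9 to 231.8. None of the 11 was listed at 0.

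For 8 of the 11 neutrophil markers the standard-diet TNBS arrays lay wholly above those of standard-diet control colons, as for 6.24% of all probe sets. For 8 they lay wholly above those of curcumin-diet TNBS colons, as for 7.75% of all. Cxcr2, Camp and Clec4d overlapped in both comparisons. The 7 tested neutrophil markers had medians of 0.85 for TNBS on the standard diet and -0.98 for curcumin against standard diet among TNBS colons, with 0 past the threshold and 6 of 7 at an unadjusted p under 0.05 in each (limma), against 7.27% and 16.9% of all tested probe sets. With the array-set term, 3 rose with TNBS on the standard diet and 2 fell with curcumin among TNBS colons. In that fit 0.236% and 0.901% of all tested probe sets passed. Outside the standard-diet TNBS colons Csf3r had 54 to 254.7 and Mmp8 had 114.9 to 218.3, with means below the filter, whose signal was 179.5. Both were thus tested through the group where they were high, and the medians and counts of the tested neutrophil markers rest partly on them. The sum of the macrophage markers was 7896.8 to 9307.1 in curcumin-diet TNBS colons, 7867.2 to 8685.9 in curcumin-diet control colons, 10393.5 to 12530.9 in standard-diet TNBS colons and 7308.1 to 8473.1 in standard-diet control colons. Of the 11 macrophage markers, 6 lay wholly higher with TNBS on the standard diet, and 7 wholly lower on curcumin among TNBS colons. The shares of all probe sets were the same 6.24% and 7.75%. The 8 tested had medians of 0.45 and -0.46, with 0 past the threshold in each (limma). At an unadjusted p under 0.05 there were 4 in each, against the same 7.27% and 16.9%. The part of neutrophils and macrophages in the levels of Il1b, Il1r2 and Il33 was not tested.

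The epithelial markers, as a sum, overlapped between all groups, at 88299.6 to 98683.9 in curcumin-diet TNBS colons, 90587.6 to 114193 in curcumin-diet control colons, 91472 to 94317.8 in standard-diet TNBS colons and 87366.3 to 99746 in standard-diet control colons. The fibroblast sum, in the same order, was 23639.4 to 27125.3, 20622.3 to 25914.8, 27139.5 to 36418.1 and 22444.7 to 24683.5. Unlike the epithelial sum, it was highest on the standard-diet TNBS arrays, the lowest of which lay just above the highest of the other groups. The part of epithelium and fibroblasts in the levels of the family was not tested.

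The sum of 8 pancreatic enzyme genes was 82614.2, 1284.7 and 16052.7 in curcumin-diet TNBS colons, 1578.6, 1034.8 and 51590.6 in curcumin-diet control colons, 93578.2, 43419 and 108062 in standard-diet TNBS colons and 1102, 106544 and 77831.4 in standard-diet control colons. It was high on all 3 standard-diet TNBS arrays and on some arrays of each other group. The median log2 difference of the 8 was 2.10 for TNBS against control enema on the standard diet and -2.85 for curcumin against standard diet among TNBS colons. In each, 0 of 8 passed the threshold and 0 of 8 had an unadjusted p under 0.05 (limma), against 7.27% and 16.9% of all tested probe sets. The sum of 5 fat genes was 5677.3 to 8650.6 in curcumin-diet TNBS colons, 5108.4 to 8088.2 in curcumin-diet control colons, 2998.2 to 7067.7 in standard-diet TNBS colons and 7885.5 to 8271.8 in standard-diet control colons. On the standard diet the TNBS arrays thus lay wholly below the control arrays. The 4 tested fat genes had medians of -0.66 and 0.59 in the 2 comparisons given for the pancreatic genes, with 0 past the threshold. At an unadjusted p under 0.05 (limma) there were 3 and 2 of 4, against the same 7.27% and 16.9%. The part of pancreas and fat in the levels of the family was not tested.

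**Figure D4:**
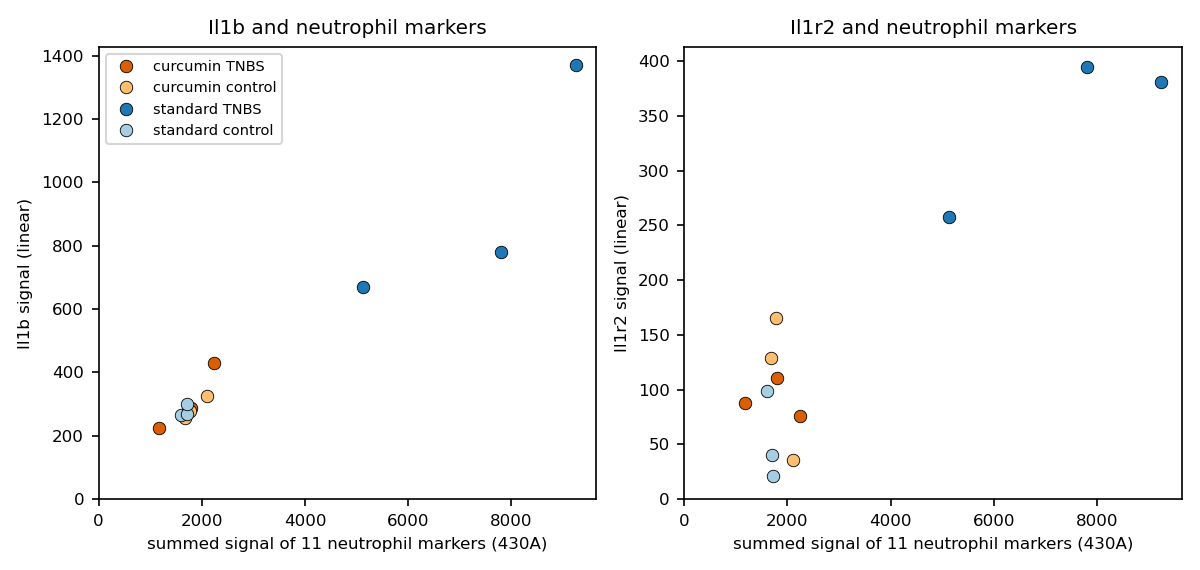
Il1b signal (left) and Il1r2 signal (right, vertical axes, linear scale) against the summed signal of 11 neutrophil markers (horizontal axes, linear scale) on the 12 arrays of the 430A type, each point 1 array coloured by group. The 3 standard-diet TNBS arrays have sums of 5135.4 to 9248 and Il1b of 670.9 to 1370.1, and the other 9 have sums of at most 2234.1, Il1b of at most 430.1 and Il1r2 of at most 165.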

How the data were processed

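Per the submitters' processing notes, the authors made the deposited signals with GCOS (version not given in the sources used here). They are intensities on a linear scale with a 2% trimmed mean near 500 on every array, and were used as deposited. Arrays give no depth, and the small number of them sets the precision, with a median standard error of a log2 difference of 0.198 on 430A and 0.257 on 430B. Detection calls were not used. Probe sets were named from the platform annotation.

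A pseudocount of 16 was added and log2 taken. Probe sets with a mean over 12 arrays above the 40th percentile were kept (13575 on 430A, 13506 on 430B), control probe sets left out. Each array type was fitted in limma 3.58.1 (R 4.3.3, lmFit and eBayes with a trend, group means over 12 arrays, 8 residual degrees of freedom), with two-sided p-values and Benjamini-Hochberg adjustment over each array type. Non-overlap was counted over all 45137 probe sets. The fit was tested on simulated data with independent noise, which held no array sets or outlying arrays and so cannot cover those.

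The members, the gene lists and the array-set term were chosen with earlier results of these data known. All member probe sets are named. A pathway gene is represented by its brightest tested probe set. Up to 4 genes of a pathway list are named, those past the threshold with or without the array set, or else the 2 with the smallest p. Il1b's likeness to other genes was ranked by the root mean square difference of centred log2 values. S100a8 and S100a9 were singled out after their values were seen.

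The alternatives were pseudocounts of 1 and 64, no filter, filtering at the 60th percentile, quantile normalization, median centring, eBayes without a trend, an adjusted p under 0.10, the compared groups' arrays alone, the array set as a term, 430B without its 2 outlying arrays, the last 2 together, and each sample left out.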

Additional observations from a re-analysis of the deposited data

Results flagged for a closer look

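Il18 differed between TNBS and control enema by 0.37 on the standard diet, where every TNBS array lay above the control arrays, and by -0.09 on the curcumin diet. The difference between these, the interaction, was -0.46 ± 0.20 with an adjusted p of 0.471 (limma), not past the threshold.

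The 430B probe set of Il1r1, 1459777_at, differed between TNBS and control enema by -0.083 on the standard diet and by 1.40 on the curcumin diet. The interaction was 1.48 ± 0.37 with an adjusted p of 0.152 in limma without the filter. Its signals were 23.8 to 68.1 in curcumin-diet TNBS colons and 5.4 to 10.4 elsewhere.

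Il33 differed between curcumin and standard diet by 0.60 with control enema and by -0.82 with TNBS enema. The interaction was -1.42 ± 0.54 with an adjusted p of 0.518 in limma without the filter, so the change of direction was not past the threshold.

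These 3 were picked out because the samples of 1 condition all lay on one side of the mean they were set against and those of the other condition on the opposite side.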

How the results depend on the processing

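Of the 60 member log2 differences, 20 had another sign under at least 1 alternative, all of them at most 0.32 in size and none past the threshold. The differences of Il1b, Il1r2, Il33, Il18 and Casp1 for TNBS on the standard diet, and for curcumin against standard diet among TNBS colons, kept their sign in all. In size, 16 alternative values moved by more than the spread between replicates, and these were the 430B probe set of Il1r1 (under pseudocounts of 1 and 64 and without the outlying 430B arrays), Il1r2 (pseudocount 64) and the interaction of Il18bp, 0.21 with the array set. For TNBS against control enema on the standard diet, 1 member, Il1b, passed at an adjusted p under 0.10, with quantile normalization (adjusted p 0.031), with median centring and with the array set, alone or with 430B reduced, against 0 in the stated fit. For curcumin against standard diet among TNBS colons, 1 passed at an adjusted p under 0.10 and with the array set, alone or with 430B reduced (Il1b), and 1 without the filter (the 430B probe set of Il1r1). With each sample left out, 0 to 1 member passed in each of these, and 0 in the other comparisons.

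Over all probe sets, 2 passed for TNBS on the standard diet, against 44 at an adjusted p under 0.10, 11 with pseudocount 64, 11 without the filter, 14 with quantile normalization (10 higher and 4 lower, against 2 and 0), 6 with median centring (4 and 2), 42 with the compared groups alone and 64 with the array set, alone or with 430B reduced (35 and 29). For the diet among TNBS colons 218 passed, against 1136 at an adjusted p under 0.10, 100 without the filter, 41 without a trend, 42 with the compared groups alone, 7 without the outlying 430B arrays and 33 with the array set besides. Median centring gave 30 higher and 272 lower there, against 53 and 165. For TNBS on the curcumin diet 55 passed, against 871 at an adjusted p under 0.10, 27 with pseudocount 1, 25 without the filter, 8 with the 60th percentile, 97 with median centring (9 higher and 88 lower, against 16 and 39), 12 without a trend, 1 with the compared groups alone and 2 without the outlying 430B arrays, with or without the array set. For the diet with control enema 1 passed, against 2 at an adjusted p under 0.10 and 0 with the 60th percentile, the compared groups alone or 430B reduced. For the interaction 9 passed, against 52 at an adjusted p under 0.10, 4 without the filter, 5 with median centring, 5 without a trend and 1 with 430B reduced, with or without the array set.

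With each sample left out in turn the counts ran from 1 to 71 for TNBS on the standard diet, 5 to 2619 for the diet among TNBS colons, 3 to 2733 for TNBS on the curcumin diet, 0 to 4 for the diet with control enema and 3 to 1399 for the interaction. The 2619 came without curcumin-diet TNBS replicate 1, and the 5 without standard-diet TNBS replicate 3. The causes were not tested. No paired analysis was possible because the labels number the 12 samples through and give no shared replicate number. Of the 12 member probe sets, 6 were too dim to be tested, which limits what can be said of the receptors.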

Other observations

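Inflammasome genes outside the family gave values in the comparisons not described for them above, with none past the threshold. Casp4, the sensor of bacterial lipopolysaccharide inside cells (the mouse gene was long called caspase 11), had 179.6, 399.2 and 236.4 in curcumin-diet control colons, against 592.2, 475.7 and 406.8 in standard-diet control colons. The groups did not overlap, as for 8.12% of all probe sets in this comparison. The difference was -0.87 ± 0.27 (adjusted p 0.998, limma), or -1.03 (adjusted p 0.396) with a term for the array set. Txnip had 4395 to 4780.6 in curcumin-diet control colons, against 4887.7 to 6544.2 in standard-diet control colons, a difference of -0.30 ± 0.12 (adjusted p 0.998, limma).

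Naip5 on the curcumin diet had 1179.5, 990.1 and 909.1 with TNBS enema, against 748.9, 460.8 and 858.5 with control enema, groups that did not overlap, with a difference of 0.60 ± 0.20 (adjusted p 1.0, limma). Between TNBS and control enema on that diet 13.2% of all probe sets did not overlap, 8.02% being higher with TNBS. The interaction of Naip5 was 0.98 ± 0.28 (adjusted p 0.285, limma). The sum of the mast cell markers overlapped between all groups, at 2153.1 to 3236.3 in curcumin-diet TNBS colons, 2214.1 to 2480.8 in curcumin-diet control colons, 2074.2 to 2618.2 in standard-diet TNBS colons and 1973.3 to 2845.6 in standard-diet control colons.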
